A study of Mus musculus with 2 samples.

Results

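The Notch pathway genes described here were 10 members chosen by name out of 21887 protein-coding genes. They are the ligand genes Dll1, Dll4, Jag1 and Jag2, the receptor genes Notch1, Notch2 and Notch4, the target genes Hes1 and Hey1, and Rbpj, which encodes the DNA-binding partner of the cleaved receptor. Their chromatin was read from single-nucleus ATAC-seq of mouse liver, an assay in which a transposase cuts open DNA and each pair of cuts leaves a fragment with the barcode of its nucleus. The study holds 1 library from an Spta sph/sph mouse, whose alpha-spectrin mutation makes red blood cells fragile, and 1 from an Spta wt/wt littermate. Both mice were male, 8 to 10 weeks old and without treatment. Their non-parenchymal liver cells were enriched on beads for F4/80, which macrophages carry on their surface. Barcodes end in 1 or 2, and no label or file read here says which genotype an ending stands for. The endings are called library 1 and library 2 below, and genotypes are not compared. Each genotype has 1 mouse and 1 library, so replicates are lacking and p-values are not given. Ranges in parentheses after a value are 95% intervals that cover counting error only.

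Notch signalling passes between touching cells. A Delta or Jagged ligand on one cell pulls on a Notch receptor on its neighbour, proteases cut the receptor, and its inner part enters the nucleus, joins RBPJ and mastermind proteins and turns on genes of the HES and HEY repressor families. In the liver, endothelial ligands are known to act on monocytes that become Kupffer cells, the resident macrophages, and on vessel patterning, while Jag1 is known from bile duct formation and from stellate cells, the pericytes of the sinusoid.

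The promoters of 4 members are shown first because the results turn on the contrast between them. In RefSeq's promoter table for build GRCm38.p6, 8 of the 10 members were matched. Each sequence is the 250 bases before the listed gene start, 5′ to 3′ on the strand of the gene. Notch4 (chr17:34564045-34564294, plus strand) and Dll4 (chr2:119325534-119325783, plus strand) had fragments mainly in endothelial-like cells. Notch2 (chr3:98013288-98013537, plus strand) was open in all cell classes. Capitals mark CpG dinucleotides in these 3 sequences.
Notch4: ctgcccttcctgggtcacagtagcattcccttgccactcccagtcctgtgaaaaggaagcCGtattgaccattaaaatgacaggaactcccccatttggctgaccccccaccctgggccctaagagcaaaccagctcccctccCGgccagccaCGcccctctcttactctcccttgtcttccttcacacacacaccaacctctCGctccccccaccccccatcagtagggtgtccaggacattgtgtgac
Dll4: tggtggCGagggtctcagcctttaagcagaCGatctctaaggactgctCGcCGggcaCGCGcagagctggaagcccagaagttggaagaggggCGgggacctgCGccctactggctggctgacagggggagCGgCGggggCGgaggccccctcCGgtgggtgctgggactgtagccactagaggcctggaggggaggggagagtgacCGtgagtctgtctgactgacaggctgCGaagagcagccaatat
Notch2: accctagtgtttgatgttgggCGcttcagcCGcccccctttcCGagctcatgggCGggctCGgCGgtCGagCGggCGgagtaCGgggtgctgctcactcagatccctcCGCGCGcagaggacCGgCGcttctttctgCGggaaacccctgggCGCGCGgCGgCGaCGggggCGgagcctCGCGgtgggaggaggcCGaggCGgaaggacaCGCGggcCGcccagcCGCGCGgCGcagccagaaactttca
Rbpj has 2 listed starts, which lie 34.567 and 34.707 kb inside the annotated gene. The promoter of the first (chr5:53590096-53590345, plus strand) was also open in all classes. Rbpj is the one member with matches to the RBPJ core letters, which the capitals mark here.
Rbpj: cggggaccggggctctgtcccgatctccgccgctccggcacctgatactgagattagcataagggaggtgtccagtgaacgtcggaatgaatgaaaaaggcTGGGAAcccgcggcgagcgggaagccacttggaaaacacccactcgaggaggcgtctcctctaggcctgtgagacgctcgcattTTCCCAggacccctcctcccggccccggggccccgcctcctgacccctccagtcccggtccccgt

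CpG content differed between these 4 promoters. Notch4 held 4 CpG dinucleotides in 250 bases, an observed to expected ratio (CpG count against the product of C and G counts, scaled by length) of 0.23 at percentile 33.4 of all 32851 promoters. Dll4 held 14, a ratio of 0.56 at percentile 63.2. Notch2 held 34, a ratio of 1.06 at percentile 96.6, and Rbpj held 21, a ratio of 0.80 at percentile 80.8, against a median of 0.37 over all promoters. The Notch4 promoter was thus the CpG-poor one among the 4 shown.

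Short motifs were searched on both strands in the same window. The RBPJ core TGGGAA lay 149 and 65 bases before the first listed Rbpj start, the nearer one on the opposite strand as TTCCCA, and 21.6% of all promoters hold at least 1 match. The window of the second Rbpj start holds only the TTCCCA match, 205 bases before that start. GC boxes (GGGCGG or CCGCCC) were found in Dll4, Jag2, Notch1 and Notch2, with 2 in Dll4 and 5 in Notch2, and 32.7% of all promoters hold one. Notch4, Jag1 and the first of 2 Dll1 entries had no match to any of the 8 motifs searched. Besides RBPJ and the GC box, these included ETS (CCGGAA, in 12% of promoters), the GATA factor motif (AGATAA, 9.99%) and the TATA box (TATAAA, 12.4%). The others were the E-box (CACGTG, 6.02%), the AP-1 motif (TGANTCA, 6.75%) and the PU.1 motif (GAGGAAGT, 2.44%). A match describes letters only, and no match says only that these letters are not in this window.

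Fragments were counted over the same promoters. In Kupffer-like, endothelial-like and stellate-like cells the Notch4 promoter held 1, 23 and 3 fragments in library 1 and 0, 19 and 0 in library 2. Dll4 held 9, 47 and 9 fragments in library 1 and 3, 61 and 1 in library 2. Endothelial-like cells thus had the most fragments at both promoters in both libraries, although they were fewer than Kupffer-like cells. At Notch2 the counts were 95, 31 and 24 in library 1 and 50, 36 and 10 in library 2, which scale to between 16.8 and 29.0 CPM (fragments per 1000000 fragments of the class) in all 6 sums of class and library. At the first Rbpj entry they were 71, 40 and 16 in library 1 and 52, 53 and 10 in library 2, or between 12.9 and 26.5 CPM. The second Rbpj entry, which overlaps the first, held more, with 116, 57 and 25 in library 1 and 83, 82 and 15 in library 2. CpG content and class did not go together over all matched members. The first Dll1 entry had a CpG ratio of 0.82 at percentile 82.9 and held 8, 15 and 0 fragments in library 1 and 2, 6 and 1 in library 2. Its Kupffer-like and endothelial-like intervals overlapped in library 2. The second Dll1 entry, at the annotated gene start, had a ratio of 0.66 and no endothelial-like lead. It held 4, 0 and 1 fragments in library 1 and 3, 3 and 0 in library 2. Jag2 had a ratio of 1.14 and held at most 2 fragments in any class.

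Library 1 held 609 filtered cells with a median of 13772 fragments and library 2 held 562 with a median of 13316, and no barcode sequence was shared between the called cells of both. Library 2 stood apart: 56.2% of its fragments were in called cells against 83.2% in library 1, and 12.1% of the fragments of its cells lay in pile-ups against 0.648%. A pile-up is a 20 kb stretch in which 1 cell alone has 10 or more fragments. They must also be 10-fold or more of what its depth would give at the rate of the other cells of its cluster there. Values without such fragments are called masked. Cells were clustered on 5 kb bins with the bins within 50 kb of the members left out, while bins of other pathway genes stayed in. Clusters were then named from markers. Kupffer-like cells numbered 319 in library 1 and 169 in library 2, endothelial-like cells 126 and 132, and stellate-like cells, named from a stellate or fibroblast list, 68 and 26. Each class had the highest level of all or nearly all of its own markers: 10 of 10 Kupffer and 13 of 13 stellate or fibroblast markers in both libraries, and 13 and 12 of 13 endothelial markers, the exception being Tek in library 2. Since the clusters were named from these same markers in the same cells, this describes the naming and is not separate support for it. The libraries filled different clusters, with 166 of the 169 Kupffer-like cells of library 2 in cluster 2 and 216 and 91 of the 319 of library 1 in clusters 1 and 8. The Kupffer score, a mean log2 ratio of the markers over all other clustered cells, was 0.43 in cluster 2. It was 1.51 and 1.26 in clusters 1 and 8, and naming needed 0.25, so the Kupffer name is weakest in library 2. Endothelial-like cells lay mostly in cluster 6 in library 1 (112 of 126) and in cluster 5 in library 2 (118 of 132). The leading genes of cluster 2, such as Scn2a and Myh7, and of cluster 5, such as Fgf23, were not markers of their class, and with pile-ups masked cluster 2 was led by Marco, Klb and Spata22.

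A level is the number of fragments over the gene body and 2 kb on both sides, summed over the cells of a class and scaled to CPM. Ratios between classes are log2 ratios of these levels minus that of the median gene, whose own log2 ratio was between -0.15 and 0.12. Calls as higher or lower need a ratio of at least 1 in size, a 2-fold difference, in both libraries and 50 or more fragments over the 2 sums in each. The class comparisons share sums with each other, since the same Kupffer-like or endothelial-like cells enter 2 of them. Fewer open copies per cell and fewer cells with open chromatin cannot be told apart in such sums.

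Among the ligands, Dll4 chromatin was most open in endothelial-like cells in both libraries. Jag1 had its highest level in stellate-like cells in both, but in library 2 that interval overlapped the endothelial-like one. Dll4 encodes the Delta ligand known from arterial and sprouting endothelium. Its level in Kupffer-like, endothelial-like and stellate-like cells was 17.1 CPM (13.8 to 20.9), 90.3 CPM (76.2 to 106) and 25.3 CPM (15.7 to 38.7) in library 1. In library 2 the levels were 6.45 CPM (3.61 to 10.6), 75.5 CPM (63.9 to 88.5) and 11.7 CPM (4.71 to 24.2). The endothelial-like interval lay above the other 2 in each library, while the Kupffer-like and stellate-like intervals overlapped in both. The endothelial-like over Kupffer-like ratio was 2.40 (2.02 to 2.80) in library 1 and 3.54 (2.82 to 4.46) in library 2, or 4.42 with pile-ups masked, since 7 of the 15 Kupffer-like fragments of library 2 came from 1 cell.

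Dll4 was the 1 member of 9 that could be read in both libraries and passed as higher in endothelial-like than in Kupffer-like cells, where 5.93% of all genes passed. It was also the 1 of 9 that passed against stellate-like cells, where 2.86% of all genes did, with ratios of 1.68 (1.04 to 2.45) and 2.50 (1.52 to 3.94). At least 1 Dll4 fragment was found in 56.3% (47.2 to 65.2%) of endothelial-like cells and 20.7% (16.4 to 25.6%) of Kupffer-like cells of library 1. In library 2 the shares were 55.3% (46.4 to 64.0%) and 5.33% (2.46 to 9.87%). Median depths were 10760.5 and 16325 fragments per cell in library 1 and 11691.5 and 12096 in library 2, so the class with the higher share was not the deeper one. Thinned to 5000 fragments per cell, the shares were 38.6% against 6.53% in library 1, and in library 2 the Kupffer-like share was 1.34%. The 13 endothelial markers together stood at 2526 and 1469 CPM in endothelial-like cells of libraries 1 and 2. They stood at 614 and 552 CPM in Kupffer-like cells and at 419 and 568 CPM in stellate-like cells. None of the 13 was at 0 in any of these classes. Their part in the Kupffer-like Dll4 level was not tested.

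Dll1 encodes another Delta ligand, known for its role in fate choices of marginal zone B cells and monocytes. Library 1 gave 9.26 CPM (6.90 to 12.2) in Kupffer-like, 60.4 CPM (49.0 to 73.7) in endothelial-like and 10.9 CPM (4.96 to 20.6) in stellate-like cells. Library 2 gave 17.6 CPM (12.6 to 23.9), 19.5 CPM (13.9 to 26.7) and 40.2 CPM (25.8 to 59.8). The endothelial-like level stood above the others in library 1 and not in library 2. There, 25 of the 41 Kupffer-like and 22 of the 24 stellate-like fragments came from 1 cell each, and the masked levels were 7.60, 22.4 and 3.63 CPM. The endothelial-like over Kupffer-like ratio was 2.70 (2.21 to 3.23) in library 1 and 0.18 (-0.49 to 0.85) in library 2, and the masked value in library 2 was 1.53 (0.68 to 2.49). With pile-ups masked, Dll1 joined Dll4, which made 2 of 9 members against 6.02% of all genes.

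Jag1, a Jagged ligand, had its lowest level in Kupffer-like cells and its highest in stellate-like cells. Its level was 23.4 CPM (19.6 to 27.8) in Kupffer-like, 62.3 CPM (50.7 to 75.7) in endothelial-like and 181 CPM (153 to 212) in stellate-like cells of library 1. In library 2 it was 33.5 CPM (26.5 to 41.9), 54.0 CPM (44.3 to 65.2) and 80.4 CPM (59.3 to 107). The 3 intervals did not overlap in library 1, whereas in library 2 the endothelial-like interval overlapped the stellate-like one. The stellate-like over Kupffer-like ratio was 3.06 (2.71 to 3.41) and 1.41 (0.86 to 1.95), and Jag1 was the 1 member of 8 that passed as higher in this comparison, where 6.61% of all genes passed. Counted within 1 kb of the gene start alone, the ratios were 2.27 and -0.42, so the library 2 call rests on the rest of the gene, where the body without flanks gave 2.68. Against Kupffer-like cells, endothelial-like cells had ratios of 1.42 (1.02 to 1.80) and 0.72 (0.29 to 1.16). Against stellate-like cells their ratios were -1.66 (-2.04 to -1.29) and -0.67 (-1.17 to -0.14), the second under 2-fold. Within 1 kb of the start these were -1.05 and 0.67.

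Jag2, the other Jagged ligand, had few fragments. It held 43, 29 and 2 fragments in Kupffer-like, endothelial-like and stellate-like cells of library 1 and 7, 17 and 2 in library 2. The levels were 7.81, 18.1 and 2.41 CPM in library 1 and 3.01, 8.50 and 3.35 CPM in library 2. The endothelial-like over Kupffer-like ratio was 1.22 (0.48 to 1.93) in library 1, and library 2 had too few fragments for the rule. In library 1 alone, 5 of 10 members were at least 2-fold higher in endothelial-like than in Kupffer-like cells (Dll1, Dll4, Jag1, Jag2 and Notch4), where 9.8% of all genes were. In library 2 alone it was 1 of 9, where 11.6% of all genes were.

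**Figure D1:**
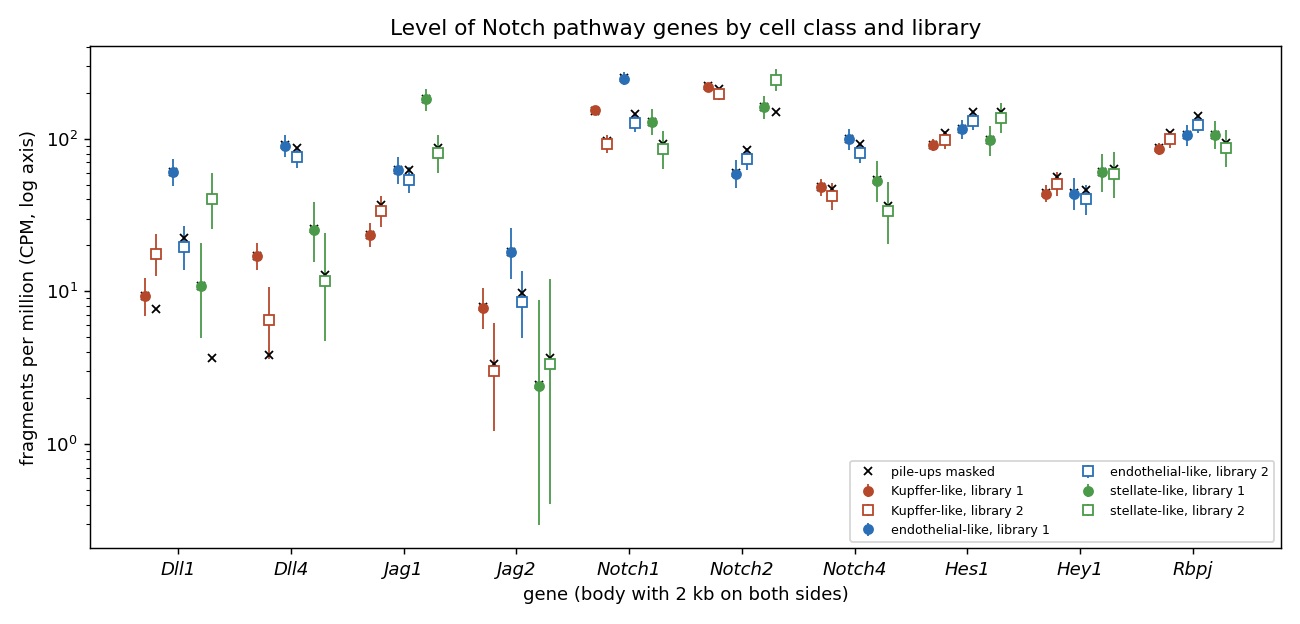
Level of each member in CPM (log axis) in Kupffer-like, endothelial-like and stellate-like cells of library 1 (filled circles) and library 2 (open squares), with exact Poisson 95% intervals as bars and the level with pile-ups masked as crosses. Dll4 was highest in endothelial-like cells and Notch2 lowest in them in both libraries, and the crosses leave the points most for Dll1 in Kupffer-like and stellate-like cells of library 2.

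The receptors divided between the classes. Notch2, the receptor known for its role in marginal zone B cells, dendritic cells and bile ducts, was lower in endothelial-like cells. Its level was 219 CPM (207 to 232) in Kupffer-like, 59.1 CPM (47.9 to 72.3) in endothelial-like and 162 CPM (135 to 191) in stellate-like cells of library 1. In library 2 it was 197 CPM (180 to 216), 74.0 CPM (62.6 to 86.9) and 245 CPM (206 to 288), and the last value was 149 CPM with pile-ups masked because 73 of its 146 fragments came from 1 cell. Endothelial-like intervals lay below both other classes in each library. The endothelial-like over Kupffer-like ratio was -1.88 (-2.20 to -1.58) and -1.38 (-1.66 to -1.11), and Notch2 was the 1 member of 9 that passed as lower, where 5.86% of all genes passed.

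Against stellate-like cells, the Notch2 ratio of endothelial-like cells was -1.57 (-1.97 to -1.18) and -1.81 (-2.15 to -1.47). It was the 1 of 9 members that passed as lower there, where 4.17% of all genes did, but the masked value in library 2 was -0.92 (-1.32 to -0.51), which no longer passed and left 0 of 8 members against 4.28% of all genes. Within 1 kb of the Notch2 start alone, the endothelial-like over Kupffer-like ratios were 0.03 and -0.28, so the difference lay inside the gene and not at its start. At least 1 Notch2 fragment was found in 86.5% and 74.6% of Kupffer-like cells and in 41.3% and 47.7% of endothelial-like cells of libraries 1 and 2. Thinned, the shares were 62.5% and 57.0% against 26.7% and 25.8%, and the median depths are those given with Dll4.

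Notch4, a receptor known from endothelium, stood at 47.9 CPM (42.3 to 54.1), 99.0 CPM (84.2 to 116) and 53.1 CPM (38.6 to 71.3) in Kupffer-like, endothelial-like and stellate-like cells of library 1. Library 2 gave 42.1 CPM (34.2 to 51.3), 81.0 CPM (69.0 to 94.5) and 33.5 CPM (20.5 to 51.7). Endothelial-like cells were highest in both, with ratios over Kupffer-like cells of 1.05 (0.76 to 1.34) and 0.98 (0.61 to 1.36), the second just inside the 2-fold limit. Much of the window sum came from the far end of the gene, which was open in all classes. In the 1 kb tile at the gene start, in contrast, Kupffer-like cells had 2 and 0 fragments and endothelial-like cells 46 and 30.

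Notch1, the receptor known for T cell and arterial fate, was read at 154 CPM (143 to 164), 248 CPM (224 to 273) and 129 CPM (106 to 156) in library 1. In library 2 the levels were 92.0 CPM (80.1 to 105), 126 CPM (111 to 143) and 85.4 CPM (63.6 to 112) in the same order of classes. Kupffer-like and stellate-like intervals overlapped in both libraries. The endothelial-like over Kupffer-like ratios of 0.69 (0.52 to 0.87) and 0.49 (0.22 to 0.76) stayed under 2-fold. The sum hides sites of opposite sign inside Notch1, given further on.

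The effector genes stayed under 2-fold between classes. Hes1, a repressor and common Notch target, lay at 90.6, 115 and 97.7 CPM in Kupffer-like, endothelial-like and stellate-like cells of library 1 and at 98.03, 130 and 137 CPM in library 2. Hey1, a related repressor, lay at 43.6, 43.6 and 60.3 CPM and at 50.7, 40.0 and 58.6 CPM. Rbpj lay at 86.1, 105 and 106 CPM and at 99.3, 123 and 87.1 CPM. The ratios of endothelial-like over Kupffer-like cells were 0.35 (0.10 to 0.60) and 0.44 (0.18 to 0.71) for Hes1, 0.01 (-0.40 to 0.39) and -0.30 (-0.74 to 0.12) for Hey1, and 0.30 (0.03 to 0.55) and 0.35 (0.09 to 0.62) for Rbpj. Those of stellate-like over Kupffer-like cells lay at 0.23 to 0.59 in library 1, while library 2 gave -0.03 to 0.64. In the remaining direction, 0 of 8 members passed as lower in stellate-like than in Kupffer-like cells, where 5.25% of all genes passed.

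Compared per kilobase of window, Hes1 was the densest member in each class, at 14.1 to 21.3 CPM per kb over the 6 sums of class and library. Its window is also the shortest, at 6.44 kb, so that the start region takes a larger share of it. Hey1 lay below it in each sum, at 5.21 to 7.85 CPM per kb. Notch2, with 0.42 to 1.74 CPM per kb over 140.83 kb, and Rbpj, with 0.82 to 1.17 over 105.667 kb, were far less dense than Hes1 and Hey1. Their windows are the longest of the members, and the part of length in this was not tested. Dll4 reached 6.50 and 5.44 CPM per kb in endothelial-like cells, above Hey1 there at 5.67 and 5.21.

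**Figure D2:**
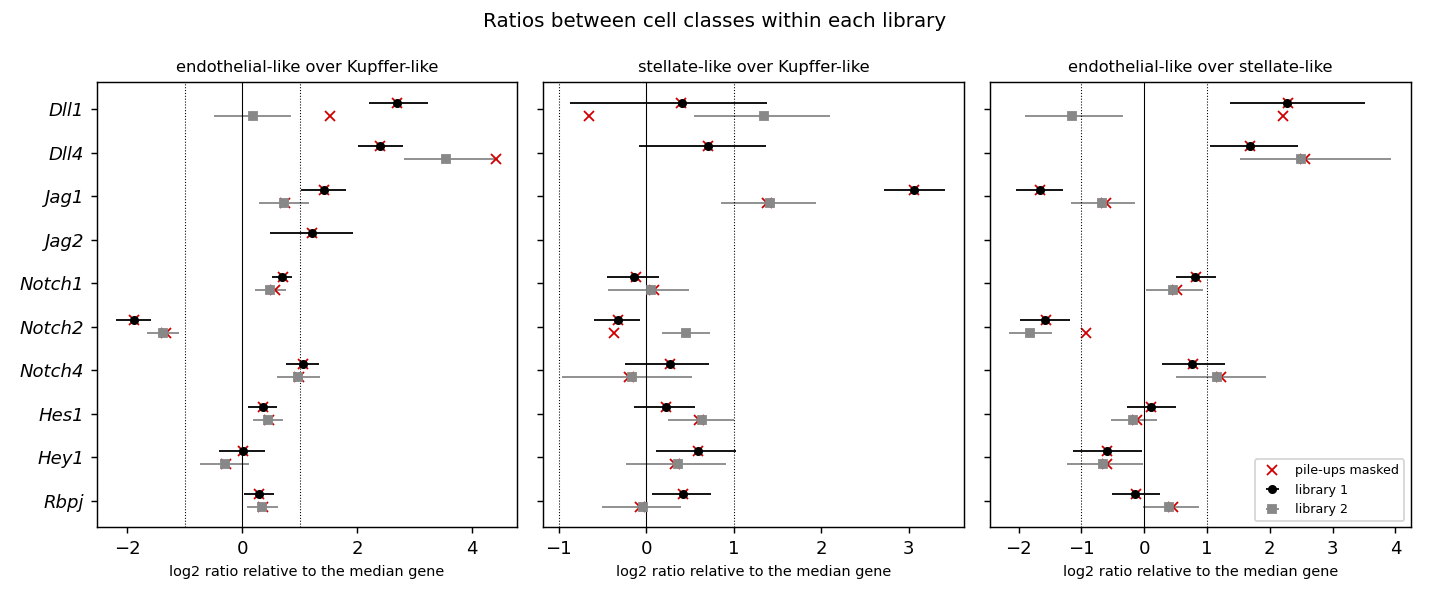
Log2 ratio of each member between cell classes relative to the median gene (x axis), for library 1 (black circles) and library 2 (grey squares) with exact conditional binomial 95% intervals, masked values as red crosses and dotted lines at a 2-fold difference; members under 50 fragments are not drawn. Dll4 passes the upper line in both libraries in the left and right panels, Notch2 the lower line in both panels until pile-ups are masked on the right, and Jag1 the upper line in the middle panel.

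Tiles of 1 kb showed where in the genes these differences lay. Of 441 tiles over the members, 43 held at least 50 fragments over the 3 classes. A tile was led by a class where its level was at least 2-fold above both other classes in both libraries. By this rule 9 of the 43 tiles, or 20.9%, were led by Kupffer-like cells, 7, or 16.3%, by endothelial-like cells, and 0 by stellate-like cells. Over the whole genome 24% of 42375 tiles were led by Kupffer-like, 5.57% by endothelial-like and 1.92% by stellate-like cells. The minimum of 50 fragments is met more easily by a class with a larger sum. Kupffer-like sums held 5506667 and 2325938 fragments in libraries 1 and 2, against 829010 and 597015 in stellate-like cells. The 0 therefore does not show that stellate-led sites are lacking. With a minimum of 20 fragments, 16 member tiles were led by Kupffer-like, 11 by endothelial-like and 6 by stellate-like cells. Positions are given as the distance of the tile's centre, along the gene, from the nearest start listed in the RefSeq promoter table. For Rbpj the listed starts lie 34.567 and 34.707 kb inside the annotated gene, and for Dll1 one of 2 lies 1.109 kb inside. Exon and intron borders were not used here.

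All 3 endothelial-led tiles of Dll4 were found around its start and behind its end. The tile at -0.284 kb (chr2:119325001-119326000), which holds the start and the promoter printed above, had levels of 2.54, 32.4 and 10.9 CPM in Kupffer-like, endothelial-like and stellate-like cells of library 1 and 2.15, 33.5 and 1.68 CPM in library 2. The tile at 1.716 kb had 0.54, 24.3 and 7.24 CPM in library 1 and 0, 13.5 and 3.35 CPM in library 2, where a count of 0 allows up to 1.29 CPM when taken as 3 fragments. The tile at 10.716 kb, in the flank behind the gene, had 7.45, 18.1 and 1.21 CPM and 1.72, 17.5 and 0 CPM, where 0 allows up to 5.03 CPM. Dll4's body overlaps the annotated gene Gm14207, and their fragments cannot be told apart.

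Notch4 had its endothelial-led tiles at both ends. At the start (0.205 kb, chr17:34564001-34565000) there were 2, 46 and 6 fragments in Kupffer-like, endothelial-like and stellate-like cells of library 1 and 0, 30 and 0 in library 2. In library 1 these are levels of 0.36, 28.6 and 7.24 CPM, and in library 2 a count of 0 allows up to 1.29 CPM in Kupffer-like and 5.03 CPM in stellate-like cells. The CpG-poor promoter printed above lies in this tile. The tile at 22.2 kb had 4.72, 13.1 and 3.62 CPM and 2.58, 17.5 and 3.35 CPM. Its neighbour at 23.2 kb was open in every class, at 24.2, 29.9 and 22.9 CPM and at 22.4, 25.5 and 13.4 CPM, and the tile at 25.2 kb holds the start of Gpsm3.

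Notch1 held sites led by different classes within 1 gene. Kupffer-like cells led the tile at 20.3 kb with 32.0, 6.85 and 1.21 CPM in library 1 and 21.9, 4.50 and 1.68 CPM in library 2. They also led the tile at 31.3 kb, with 19.98, 0.62 and 0 CPM and 12.5, 2.00 and 1.68 CPM, where 0 allows up to 3.62 CPM, and the tile at 18.3 kb. Endothelial-like cells led the tile at 28.3 kb with 17.1, 50.4 and 2.41 CPM and 9.03, 29.5 and 1.68 CPM. They led the tile at 3.32 kb too, where Kupffer-like cells had 0 and 1 fragments and endothelial-like cells 29 and 25. The start tile was led by none, at 19.6, 25.5 and 6.03 CPM and at 15.5, 9.50 and 6.70 CPM, and it also holds the start of Gm35978.

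In Notch2 all 5 led tiles were Kupffer-led and lay at 11.962, 18.962, 32.962, 42.962 and 70.962 kb, inside the gene. The one at 32.962 kb (chr3:98046001-98047000) had 102 Kupffer-like fragments in library 1 and 40 in library 2, or 18.5 and 17.2 CPM. Endothelial-like cells had 0 and 1 fragments there, and stellate-like cells 0 and 3. At the start of Notch2, in contrast, the tile had 19.2, 21.2 and 33.8 CPM in library 1 and 25.4, 20.5 and 21.8 CPM in library 2, with overlapping intervals in all 3 classes of each library. The Notch2 promoter printed above, rich in CpG, lies in that tile.

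**Figure D3:**
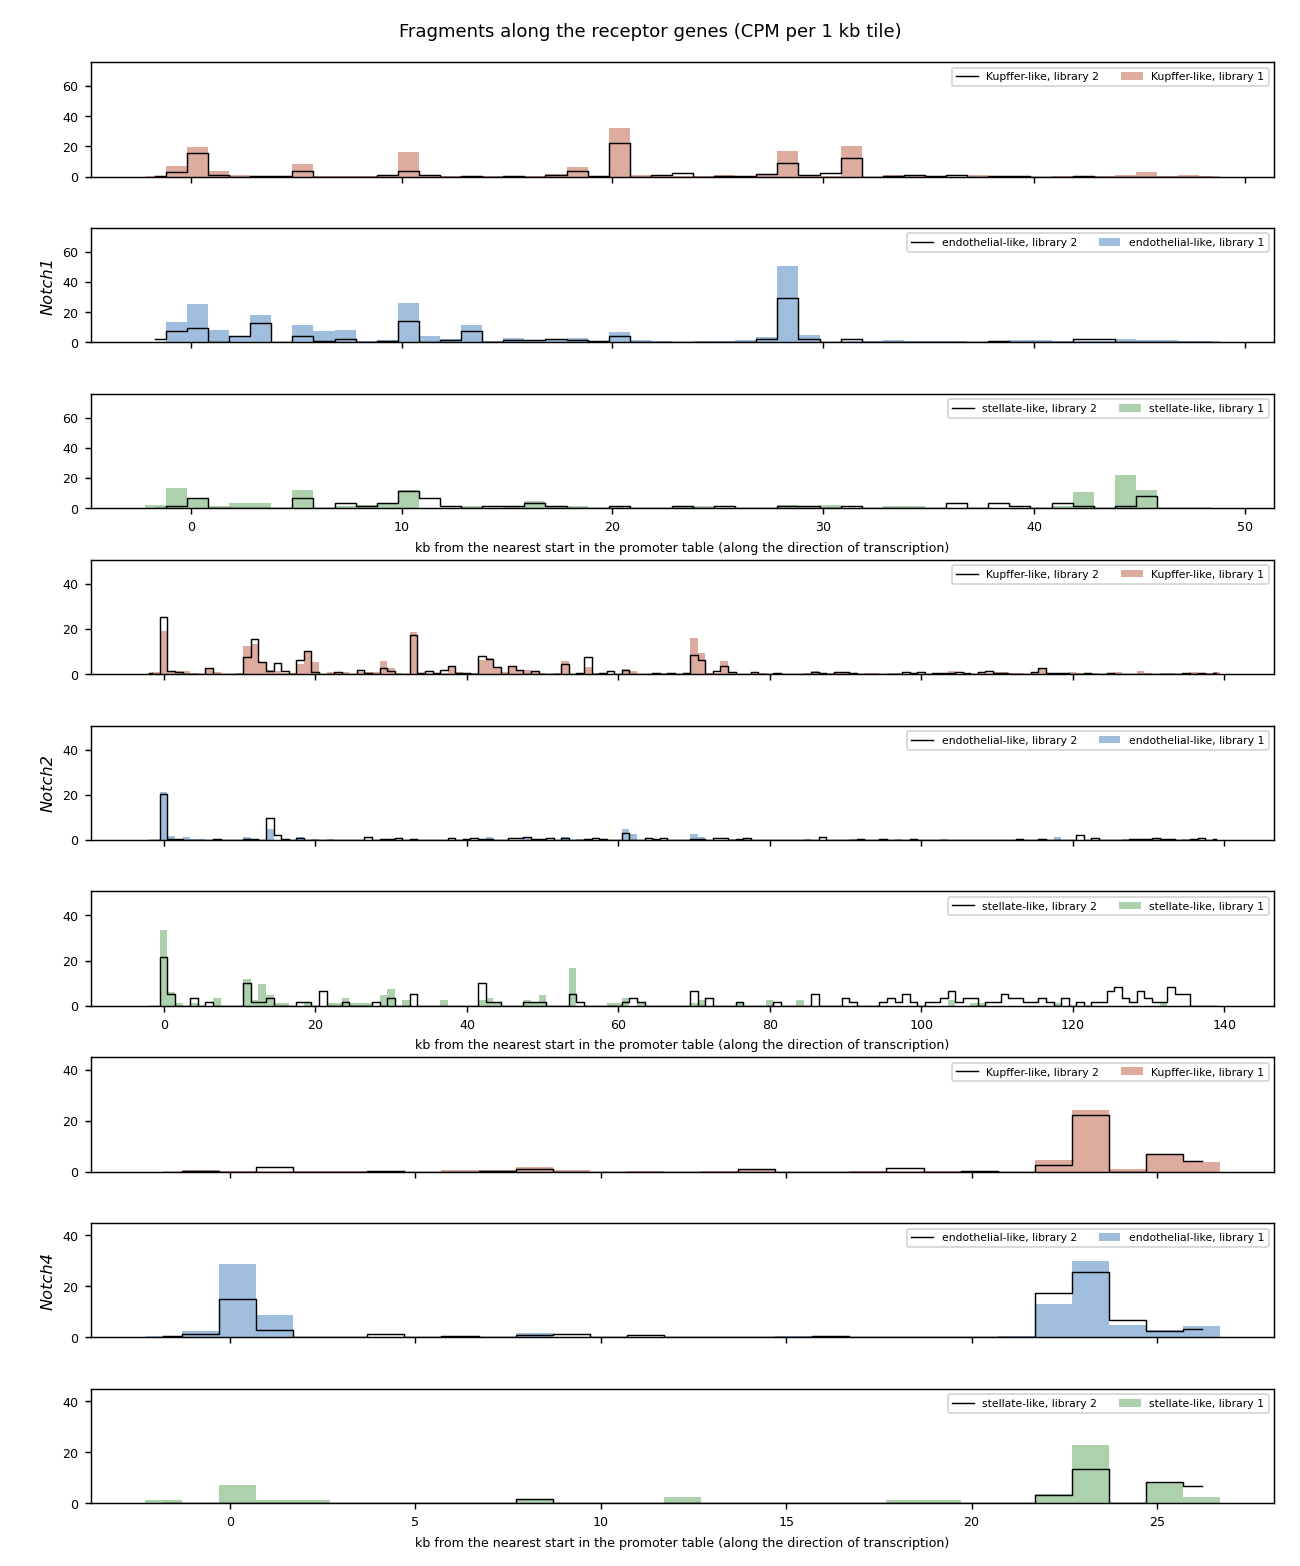
CPM in 1 kb tiles along Notch1, Notch2 and Notch4 against the distance from the nearest listed start in kb, with 1 panel per cell class, coloured bars for library 1 and a black line for library 2. The Notch4 start is open in endothelial-like cells, the Notch2 start in all classes, and the sites inside Notch2 and at 20.3 and 31.3 kb of Notch1 in Kupffer-like cells.

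No tile of Jag1 with 50 fragments was led by a class. The 3 such tiles, at -0.98, 0.02 and 2.02 kb, were open in all classes, with stellate-like levels of 25.3, 26.5 and 29.0 CPM in library 1 and 8.38, 8.38 and 15.1 CPM in library 2. Tiles with fewer fragments, picked after their values were seen, held stellate-like fragments far inside the gene. At 31.0 kb there were 3, 0 and 20 fragments in Kupffer-like, endothelial-like and stellate-like cells of library 1 and 0, 0 and 4 in library 2. At 33.0 kb there were 1, 1 and 15 fragments in library 1 and 0, 0 and 3 in library 2. The flank of Jag1 also reaches Slx4ip.

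The effector tiles were mostly shared by the classes. The tile at the listed Rbpj starts held 28.7, 47.3 and 42.2 CPM in library 1 and 46.4, 48.5 and 40.2 CPM in library 2. A Kupffer-led tile lay at -1.85 kb, before the listed start but inside the annotated gene body, with 6.36, 1.245 and 1.21 CPM and 6.45, 2.50 and 0 CPM, where 0 allows up to 5.03 CPM. For Hes1 and Hey1, which had no strand in the tables used, none of the 5 and 2 tiles with 50 fragments was led by a class. The fullest Hes1 tile (chr16:30064001-30065000), in the flank, held 34.5, 52.9 and 43.4 CPM and 35.3, 61.5 and 67.0 CPM. The fullest Hey1 tile (chr3:8667001-8668000) held 27.1, 29.9 and 35.0 CPM and 38.3, 29.0 and 41.9 CPM. Jag2 had no tile with 50 fragments, and the 1 such tile of Dll1, at its inner listed start, was led by none.

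**Figure D4:**
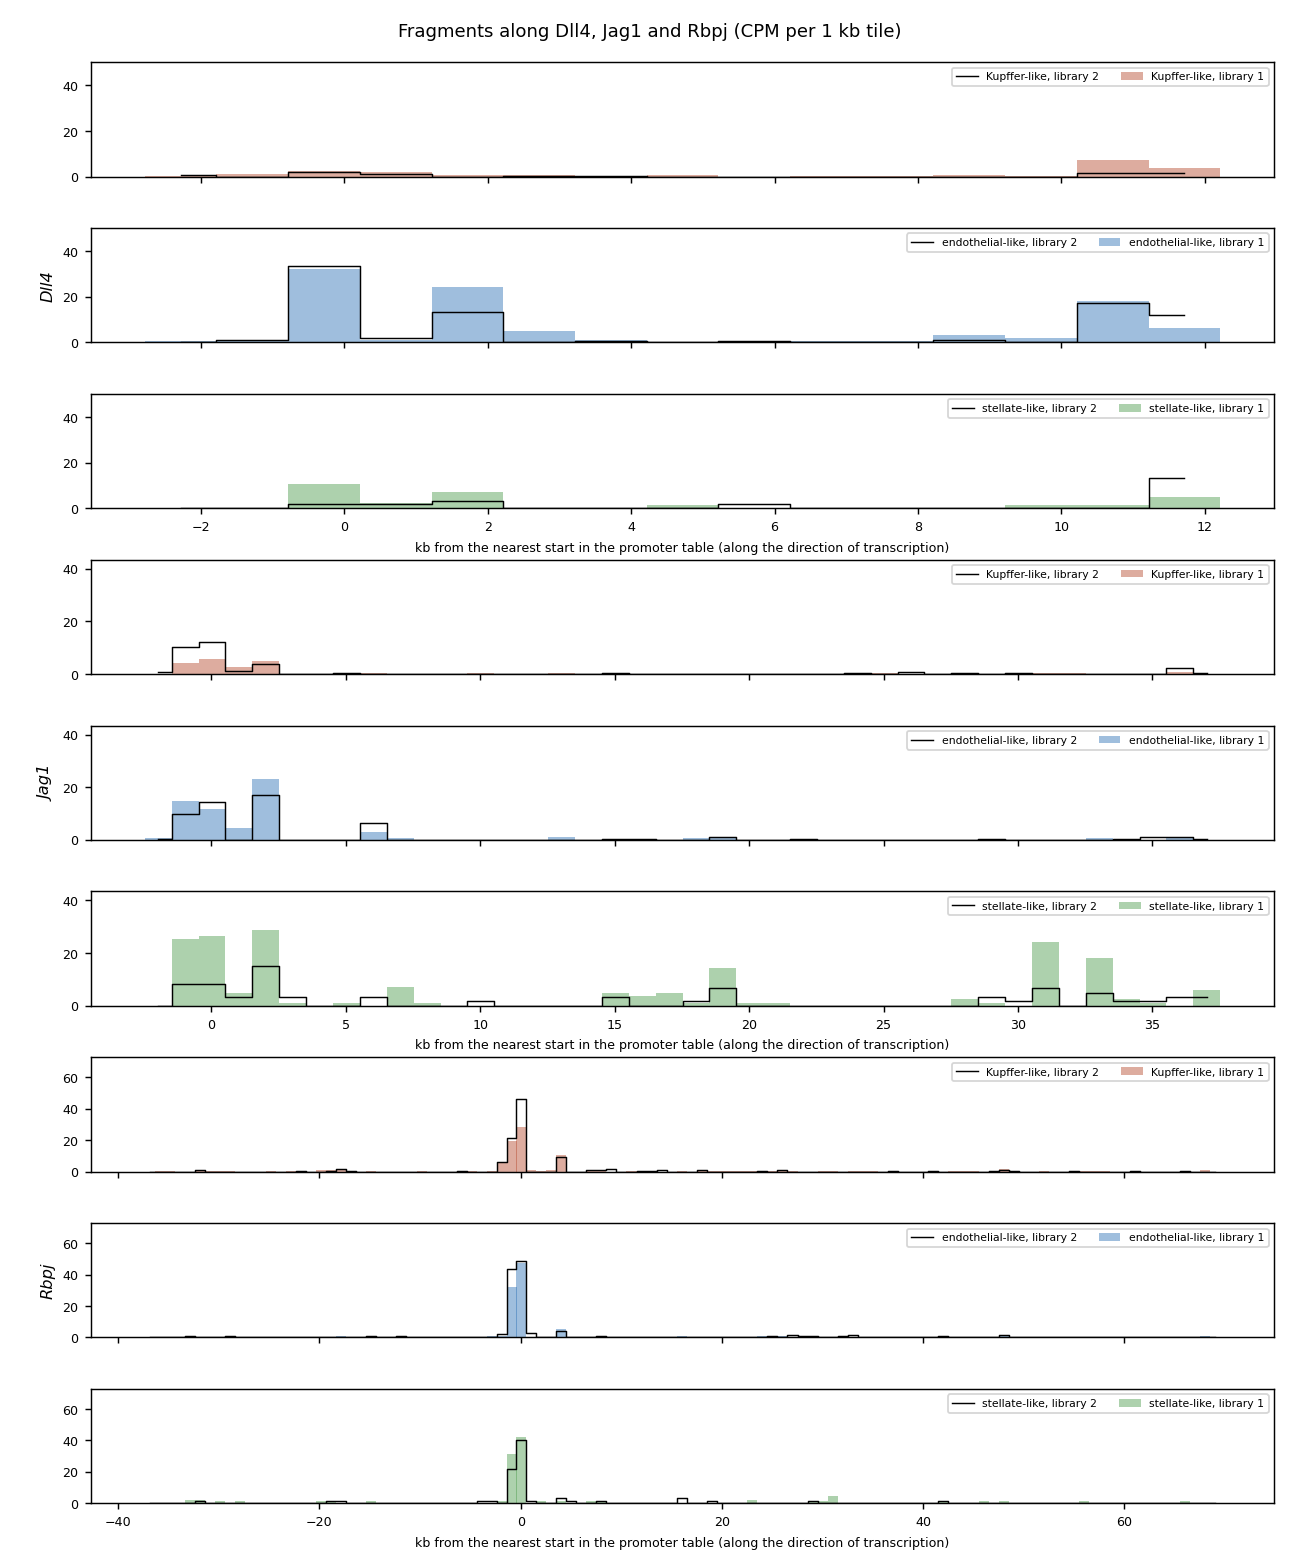
CPM in 1 kb tiles along Dll4, Jag1 and Rbpj against the distance from the nearest listed start in kb, with 1 panel per cell class, coloured bars for library 1 and a black line for library 2. Dll4 is open at its start in endothelial-like cells, Jag1 has further tiles at 31.0 and 33.0 kb in stellate-like cells, and the listed Rbpj start is open in all classes.

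Between the libraries, Notch1 had intervals below 0 and Hes1 and Rbpj intervals above 0 in both Kupffer-like and endothelial-like cells. The ratios themselves stayed under 2-fold as counted here, though Notch1 passed it in some other settings. Each member call at 2-fold, given below, was lost in some of the other settings tried. These ratios are of library 2 over library 1 within a class, relative to a median gene at -0.19, -0.19 and -0.12 (log2) in Kupffer-like, endothelial-like and stellate-like cells. Notch1 had ratios of -0.55 (-0.77 to -0.33), -0.78 (-1.02 to -0.55) and -0.47 (-0.99 to 0.01) in these classes. Its ratio reached -1.04 in endothelial-like cells within 1 kb of the start and -1.22 in stellate-like cells with classes taken from marker fragments. Hes1 had ratios of 0.30 (0.07 to 0.53), 0.37 (0.09 to 0.65) and 0.61 (0.15 to 1.07), and Rbpj of 0.40 (0.16 to 0.63), 0.42 (0.14 to 0.71) and -0.16 (-0.69 to 0.34). Jag1 and Hey1 in Kupffer-like cells had ratios of 0.71 (0.28 to 1.12) and 0.41 (0.08 to 0.73), and Notch2 in endothelial-like cells 0.51 (0.13 to 0.90). Notch2 and Notch4 in Kupffer-like cells lay at 0.04 (-0.12 to 0.19) and 0.01 (-0.35 to 0.34). A library and its genotype cannot be told apart in these values, nor can the cluster that most of its cells fell into.

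In Kupffer-like cells Dll4 was lower in library 2, at 94 fragments against 15 and a ratio of -1.17 (-2.11 to -0.42), or -1.99 with pile-ups masked. Jag2 was also lower, at 43 fragments against 7 and a ratio of -1.10 (-2.58 to -0.02). These were 2 of 10 members, where 3.95% of all genes were lower by this rule. The Dll4 ratio was -0.67 without doublets marked by overlap (cells where more than 2 fragments often cover a position), -0.45 within 1 kb of the start, -0.96 without flanks and -0.70 in thinned cells, so the call ended in these settings. The Jag2 ratio was -0.79 without flanks and 0.79 with classes taken from marker fragments. With either set of doublets left out, within 1 kb of the start and in thinned cells, Jag2 had too few fragments for a call. Dll1 was the 1 of 10 members that was higher, at 1.12 (0.49 to 1.74), where 6.42% of all genes were, and the masked ratio was -0.15 (-1.10 to 0.65), which left 0 of 10 against 3.64% of all genes. The Kupffer markers summed to 994 CPM in library 1 and 604 CPM in library 2, and the endothelial markers to 614 and 552 CPM in the same cells. Their part in these ratios was not tested.

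In endothelial-like cells Dll1 was the 1 of 9 members lower in library 2, at 97 fragments against 39 and a ratio of -1.43 (-2.01 to -0.89), where 2.66% of all genes were, and masking gave -1.36. Thinning to 5000 fragments per cell gave -0.88. Of the 9 members 0 were higher, where 7% of all genes were. Dll4 had a ratio of -0.07 (-0.40 to 0.27) and Jag1 of -0.01 (-0.42 to 0.39). The endothelial markers summed to 2526 CPM in library 1 and 1469 CPM in library 2, and their part in the Dll1 ratio was not tested.

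In stellate-like cells Jag1 was the 1 of 7 members lower in library 2, at 150 fragments against 48 and a ratio of -1.04 (-1.56 to -0.58), where 3.32% of all genes were. The ratio was under 2-fold in thinned cells (-0.97), without doublets marked by overlap (-0.88) and in cells with at least 3000 fragments in peaks (-0.97). Of the 7 members 0 were higher, where 4.77% of all genes were. Notch2 had a ratio of 0.71 (0.36 to 1.06), and -0.09 (-0.50 to 0.32) with pile-ups masked. The stellate or fibroblast markers summed to 1492 and 1087 CPM, and their part in the Jag1 ratio was not tested.

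**Figure D5:**
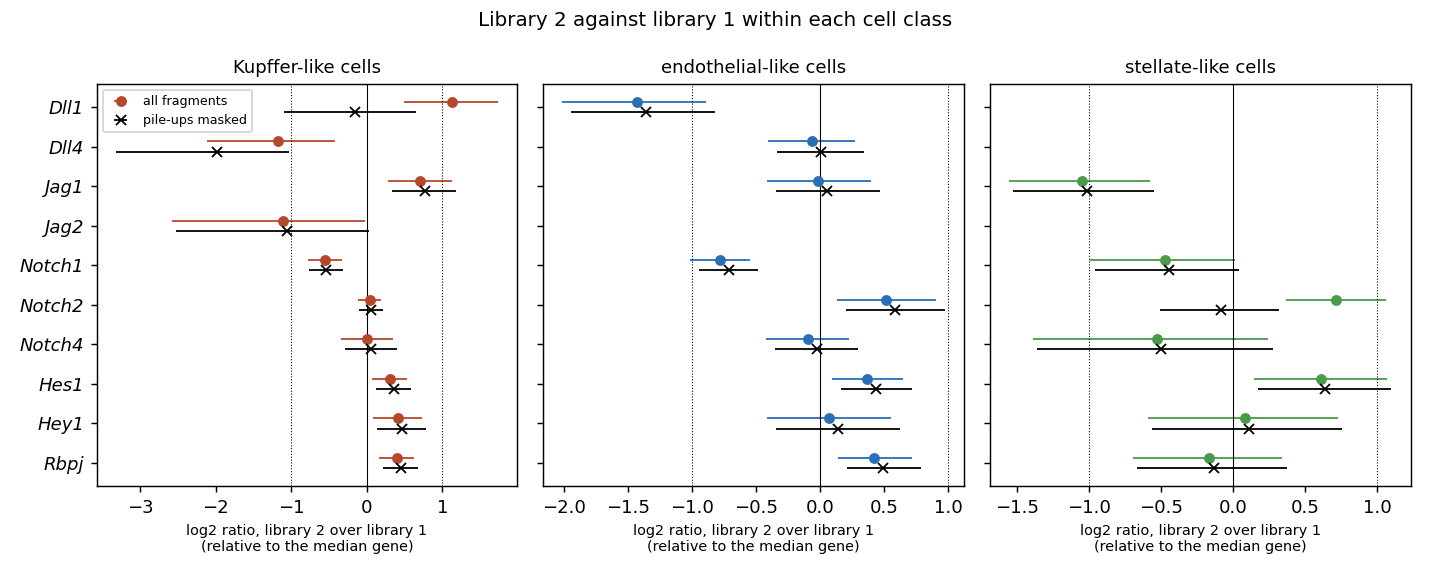
Log2 ratio of library 2 over library 1 for each member within a cell class, relative to the median gene (x axis), with all fragments (coloured circles) and with pile-ups masked (black crosses), exact conditional binomial 95% intervals and dotted lines at a 2-fold difference. Masking moves Dll1 and Dll4 in Kupffer-like cells and Notch2 in stellate-like cells, and Notch1 lies left of 0 in all 3 panels.

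Within library 1, the Kupffer-like clusters 8 and 1 could be compared without a change of library. Dll4 stood at 21.7 CPM in cluster 8 (57 fragments) and 12.7 CPM in cluster 1 (36 fragments), a ratio of 0.80 (0.18 to 1.45). Rbpj stood at 75.2 and 96.3 CPM, a ratio of -0.33 (-0.60 to -0.06). The intervals of the other 8 members included 0. No member passed 2-fold, where 0.586% of all genes were higher and 0.141% lower.

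The other genes of the pathway, 50 in 7 lists, were read in the same way. Of these, 41 could be read in both libraries for endothelial-like against Kupffer-like cells, and 0 passed as higher and 3 as lower, where 5.93% and 5.86% of all genes did. The 3 were Neurl1a and Neurl1b, ubiquitin ligases of ligand uptake, and Dtx4, a Deltex ligase that acts on the receptor. The median ratio of the 41 was -0.04 in library 1 and -0.09 in library 2, while that of the members read was 0.87 (10 members) and 0.44 (9 members), where the median of all genes is 0 by construction. Dtx4 had levels of 98.2, 21.2 and 160 CPM in Kupffer-like, endothelial-like and stellate-like cells of library 1 and 73.5, 20.5 and 109 CPM in library 2. Its endothelial-like over Kupffer-like ratios were -2.19 (-2.76 to -1.71) and -1.79 (-2.34 to -1.31), and those of Neurl1b -1.47 (-2.32 to -0.78) and -1.56 (-2.61 to -0.69). At the other end stood Aph1a, a subunit of the gamma-secretase that cuts the receptor, at 0.92 (0.60 to 1.24) and 0.80 (0.35 to 1.27), and Nrarp, a target and feedback inhibitor, at 0.88 (0.38 to 1.36) and 0.83 (0.24 to 1.45).

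In stellate-like cells the target genes Hey2 and Heyl passed as higher. Heyl, a HEY family repressor, held 15 and 8 Kupffer-like, 1 and 10 endothelial-like and 100 and 55 stellate-like fragments in libraries 1 and 2. Its stellate-like level was 121 and 92.1 CPM, and its ratio over Kupffer-like cells 5.54 (4.79 to 6.47) and 4.82 (3.81 to 6.17). Of 38 genes read, those that passed as higher in stellate-like than in Kupffer-like cells included Hey2, Heyl and Dtx2, and 2 passed as lower (Adam10 and Lfng), where 5.25% of all genes did. Dtx2, another Deltex ligase, had ratios of 1.66 (1.21 to 2.09) and 1.47 (0.84 to 2.07). Lfng, a fringe enzyme that adds sugar to Notch, had ratios of -3.24 (-4.66 to -2.28) and -1.22 (-2.26 to -0.42), and Adam10, a protease of the first receptor cut, -1.14 (-1.64 to -0.71) and -1.18 (-1.85 to -0.62). The clusters were built from bins that include these genes, and Heyl was among the leading genes of the stellate-like cluster, so its difference is a description.

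Against stellate-like cells, endothelial-like cells had 1 of 34 pathway genes higher, Nrarp, and 3 lower, Heyl, Dtx2 and Dtx4, where 2.86% and 4.17% of all genes were. Nrarp had ratios of 2.04 (0.93 to 3.65) and 1.92 (0.64 to 4.00), from 56 fragments against 6 in library 1 and 60 against 4 in library 2. Lfng had ratios of 3.43 (2.45 to 4.86) and 0.91 (0.08 to 1.97). The ratios of Heyl were -7.14 (-13.0 to -5.21) and -4.24 (-5.43 to -3.31), the first from 1 endothelial-like fragment, and those of Dtx4 -3.03 (-3.63 to -2.49) and -2.49 (-3.10 to -1.91).

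Genes with a pattern most like a member were found by Pearson's r of log2(CPM + 1) over 10 sums of class or cluster and library, which share libraries, depth and pile-ups, so r is a description. Dll4 was most like Mapk11 (r = 0.955), Adamts7 (0.942) and Iqub (0.941). Genes close to Jag1 included Pcolce (0.951) and Daam1 (0.937), and Notch2 was most like Osbpl3 (0.969), Sestd1 (0.935) and Isyna1 (0.922). For Notch4 the nearest was Trappc11 (0.952), for Notch1 Aff1 (0.959), for Dll1 Klhl3 (0.931) and for Jag2 Dmtn (0.950), followed by Mfng (0.928). Hes1 came closest to Zbtb12 (0.961), Hey1 to Rnf7 (0.933) and Rbpj to Tepsin (0.949).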

How the data were processed

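Fragments of 2 single-nucleus ATAC-seq libraries were used. The table the authors deposited gives counts of read pairs per unique fragment, not normalized, and a second deposited table gives counts per barcode with the authors' cell calls. The submitters' processing notes name build GRCm38.p5, Signac 0.2.4, Seurat, R 3.6.1, Cell Ranger and Cell Ranger ATAC 1.2.0, with no role for any. No source used here gives the threshold of the cell call. Gene positions came from RefSeq's table for GRCm38.p6, a patch release with the same primary chromosomes.

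The filter kept called cells whose fragments in peaks numbered 1000 or more and made up 15% or more, with blacklisted regions at 5% or less (609 of 637 and 562 of 575). A TF-IDF matrix of 343567 bins of 5 kb was cut to 30 singular vectors (scikit-learn 1.9.0), with 283 bins within 50 kb of the members left out, and Leiden clustering at resolution 0.5 (leidenalg 0.10.2) gave 9 clusters. Clusters were named from 14 marker lists of 106 genes given a score of 0.25, a lead of 0.2 over the next list and 3 detected markers. Clusters 3 and 4 stayed unnamed. Doublets were kept: 31 and 13 cells were marked by simulated pairs (scanpy 1.11.5), 68 and 85 by overlap and 12 and 6 by both.

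Each unique fragment was counted once per window. CPM has exact Poisson and ratios exact conditional binomial intervals (scipy 1.17.1), and point ratios use counts plus 0.5. The counting was checked on simulated data. Members, lists, motifs and settings were chosen with earlier results of these data known. Named genes were the 10 members, the 2 highest and 2 lowest pathway genes of each class comparison and the 3 genes most like a member, with other names given where a count of 5 or fewer was listed. Some genes that these rules name are not reported here. The deposited table has 1 line per fragment and barcode, and the stellate-like sums held 829010 and 597015 fragments. The alternatives are given at the end.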

Additional observations from a re-analysis of the deposited data

Results flagged for a closer look

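Dll1 differed between the libraries in the direction of its endothelial-like over stellate-like ratio. The ratio was 2.28 in library 1 and -1.14 in library 2, with intervals of 1.37 to 3.52 and -1.90 to -0.34, and the difference was not tested. Of the 24 stellate-like fragments of library 2, 22 came from 1 cell, and with pile-ups masked the library 2 ratio was 2.21, from 2 stellate-like fragments.

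Notch2 differed in the same way in its stellate-like over Kupffer-like ratio, which was -0.32 (-0.60 to -0.07) in library 1 and 0.46 (0.18 to 0.73) in library 2, and this difference was not tested either. Of the 146 stellate-like fragments of library 2, 73 came from 1 cell, and the masked ratio was -0.36 (-0.73 to -0.03).

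Barcodes that were not called as cells also held fragments over the 10 members, 1116 in library 1 and 3521 in library 2, which no comparison used. Dll4 stood at 23.5 CPM (17.1 to 31.4) and 16.3 CPM (13.9 to 19.1) in these barcodes, between its Kupffer-like and endothelial-like levels. Hes1 stood at 61.1 CPM (50.5 to 73.2) and 26.2 CPM (23.0 to 29.6), below its level in each of the 3 classes.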

How the results depend on the processing

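The 80 ratios of members with enough fragments were recomputed under 14 alternatives, which gave 1120 values: 1022 moved by less than counting error and kept their side, 90 moved further and 8 reversed. The reversals were, within 1 kb of the start, Jag2 (-0.27) and Notch2 (0.029) for endothelial-like over Kupffer-like cells in library 1, Jag1 (-0.42) for stellate-like over Kupffer-like cells in library 2 and Dll1 (-0.54) for library 2 over library 1 in Kupffer-like cells. With pile-ups masked they were Dll1 for stellate-like over Kupffer-like (-0.65) and endothelial-like over stellate-like cells (2.21) in library 2 and for library 2 over library 1 in Kupffer-like cells (-0.15). With classes taken from marker fragments it was Jag2 for library 2 over library 1 in Kupffer-like cells (0.79). The cause was not tested beyond the construction of each alternative.

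The number of members higher in endothelial-like than in Kupffer-like cells, 1 as reported, was 2 with no minimum of fragments, with at least 3000 fragments in peaks, with classes from marker fragments and with pile-ups masked, and 3 without flanks. Members lower there went from 1 to 0 within 1 kb of the start. Members higher in stellate-like than in Kupffer-like cells went from 1 to 0 within 1 kb of the start and in thinned cells, where Jag1 kept 3.20 and 1.11 but fell under the minimum of fragments. Members higher in endothelial-like than in stellate-like cells were 2 with no minimum and 0 in thinned cells, and members lower were 2 without flanks and 0 within 1 kb of the start and with pile-ups masked.

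For library 2 over library 1, Kupffer-like cells had 0 higher members with marker classes and with pile-ups masked. They had 1 lower member with marker classes and without simulated-pair doublets, and 0 without overlap doublets, without flanks, within 1 kb of the start and in thinned cells. Endothelial-like cells had 2 lower members within 1 kb of the start and 0 in thinned cells. Stellate-like cells had 1 higher member with no minimum, without overlap doublets, with insertions counted and in thinned cells. They had 2 lower members with marker classes and with insertions counted, and 0 with at least 3000 fragments in peaks, without overlap doublets, within 1 kb of the start and in thinned cells. Marker classes held 196 and 33 Kupffer-like cells in libraries 1 and 2, where the clusters held 319 and 169. In library 2 they held 58 endothelial-like cells, where the clusters held 132. With at least 20 fragments per tile, 16 tiles were led by Kupffer-like, 11 by endothelial-like and 6 by stellate-like cells.

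No paired analysis was possible because each genotype has 1 library and the barcode endings are tied to neither. Depth limits Jag2 and Dll1 and all stellate-like sums of library 2, which rest on 26 cells. A difference in a count of called members is a count only and does not name which genes stayed.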

Other observations

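Members could also be read in clusters outside the 3 classes. Cluster 4, which stayed unnamed and whose leading genes with pile-ups masked include Flt3 and Napsa, had a Notch2 level of 249.8 CPM (216 to 287) in library 1, and library 2 gave 254 CPM (232 to 278). Its Jag2 level was 12.8 CPM (6.11 to 23.4) and 20.1 CPM (14.2 to 27.6), and its Dll4 level 11.5 CPM (5.25 to 21.8) and 9.52 CPM (5.64 to 15.1). Hes1 was read there at 59.9 CPM (44.0 to 79.7) and 65.6 CPM (54.6 to 78.2). The hepatocyte-like cells of library 1, 28 in number, had a Jag1 level of 84.0 CPM (59.4 to 115), with 21 of its 38 fragments from 1 cell, and a Hey1 level of 15.5 CPM (6.22 to 31.9).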
